A study of Mus musculus with 32 samples.

Results

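Gene expression in marrow progenitors of adult mice fed doxycycline, meant to induce a U2AF1 transgene, was compared with that of untreated wild-type mice. The comparison used 9 of the 32 libraries of the series, chosen by the genotype and treatment in the labels: 6 libraries of the 2500 ppm group and 3 of the untreated group. Mice of both groups carried Mx1-Cre, rTA and the transgene tgU2AF1(WT), which expresses wild-type U2AF1 under doxycycline. The 2500 ppm group had the endogenous alleles U2af1(flox/S34F), received 6 doses of polyinosinic-polycytidylic acid (pIpC), and ate chow with 2500 ppm doxycycline. The untreated mice had the endogenous alleles U2af1(wt/wt) and received neither agent. Thus the U2af1 alleles, pIpC and doxycycline all differed at once, and the effects of these 3 cannot be told apart. Ages, sexes and the time from pIpC to harvest were not given in the sources used here. The labels do not say whether each library came from a separate mouse, so p-values measure the spread between these libraries, which may be technical.

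The series asks how much U2af1 blood progenitors need. Its other libraries came from fetal liver and from adult mice of the dosed genotype at 1250 ppm (4 libraries) and 10000 ppm (4 libraries). All were RNA sequencing libraries of total RNA depleted of ribosomal RNA, made from cells sorted as negative for lineage markers, positive for cKit and negative for Sca1. Such cells are committed progenitors, mostly of the myeloid and erythroid lineages.

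U2AF1 is the small subunit of U2AF, which binds the AG dinucleotide at the end of an intron and helps recruit the spliceosome to the 3' splice site. S34F is a substitution in a zinc finger of the protein that is recurrent in myeloid neoplasms and changes which 3' splice sites are used. pIpC is a mimic of double-stranded RNA. It provokes type I interferon, which switches on the interferon-responsive Mx1 promoter and so the Cre recombinase that deletes the floxed allele. Mx1-Cre acts in blood cells and also in liver and marrow stroma, so deletion is not limited to the sorted cells. In the dosed mice the floxed allele is meant to be lost, which leaves the S34F allele and the doxycycline-dependent wild-type transgene. U2af1 was not analysed here, and the genotype in the labels was therefore not checked against its expression.

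Total counts ran from 45805969 to 59249060 in the 2500 ppm libraries and from 50153559 to 58256477 in the untreated ones. Levels below are CPM, the counts of a gene per 1000000 counts of its library after scaling. The gate marker Kit was at 594 ± 57.0 CPM (mean ± SD, n = 6) at 2500 ppm and 555 ± 67.4 CPM (n = 3) in untreated wild type, and did not pass the test (adjusted p = 0.788, by the quasi-likelihood test of edgeR, adjusted after Benjamini and Hochberg over all genes tested, used for all adjusted p below unless another tool is named). The granule gene Mpo of early neutrophil precursors reached 28790 ± 4106 CPM at 2500 ppm and 29350 ± 3897 CPM in untreated wild type.

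Libraries of the same label stood apart from one another. On the first principal component of the 17 adult libraries, which held 30.9% of the variance, the 3 untreated libraries lay between -41.1 and -25.4 and the 6 libraries at 2500 ppm between -4.37 and 18, with no overlap. On the second component (23.2%), replicates 1, 5 and 6 at 2500 ppm lay at -18.4, -12.8 and -18.4, on the side of the untreated libraries, and replicates 2, 3 and 4 lay at 14.7, 20.5 and 19.8, among the 1250 ppm libraries. The same libraries separated by transcript GC content. Spearman's rho between a library's deviation in log2 CPM and GC content, across 6890 genes, was -0.42, -0.64 and -0.48 in replicates 1, 5 and 6, and 0.44, 0.58 and 0.30 in replicates 2, 3 and 4. The untreated libraries had values of -0.54, -0.49 and -0.36. Genes are not independent replicates, and the part of this difference in the results was not tested beyond the GC-corrected values given below. Untreated replicate 3 had 0 counts of the Y-linked transcript Gm29650, against 17 to 51 in every other adult library. Over all Y-linked genes it had 91 counts, against 64 to 119 in the other 8 compared libraries, and the Y-linked pseudogene Mid1-ps1, a called gene, was highest in it (56 counts, against 13 and 21 in the other untreated libraries). Whether the sexes differed between the groups was not tested.

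**Figure D1:**
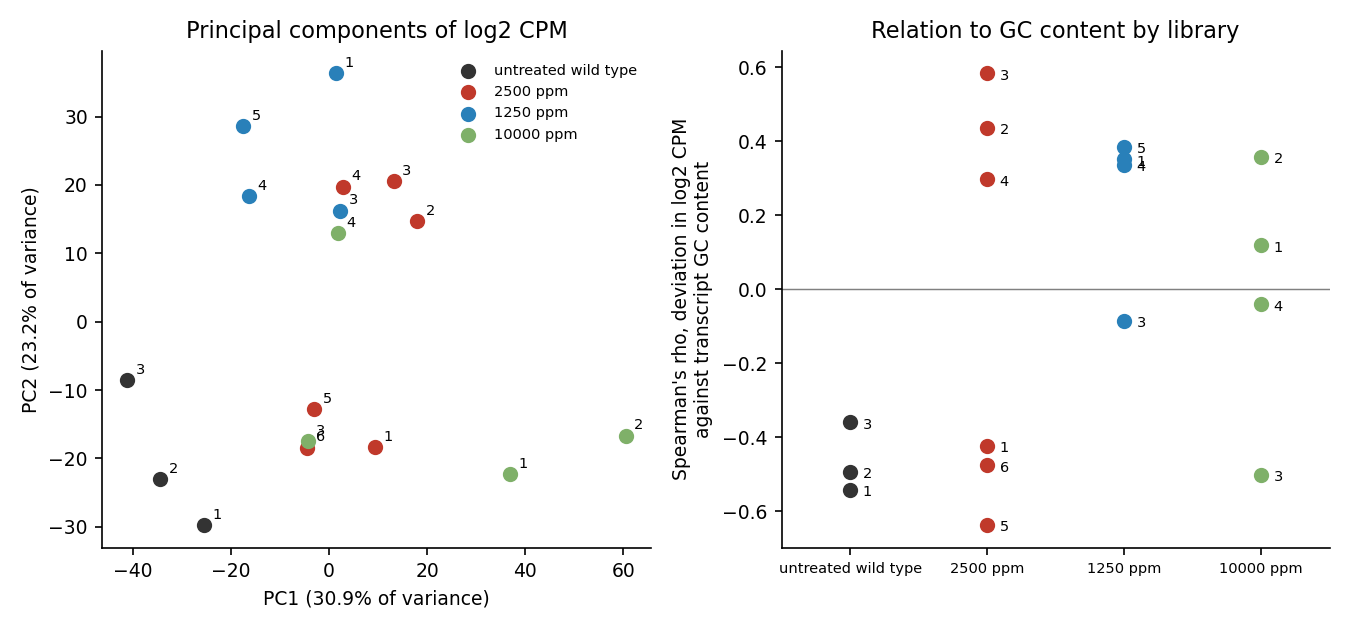
Left, each of the 17 adult libraries by its first and second principal component of log2 CPM. Right, Spearman's rho between each library's deviation in log2 CPM and transcript GC content across 6890 genes. Points are libraries, numbers are replicates, and the 2500 ppm libraries fall on both sides of 0 on the second component and in rho.

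The 2500 ppm group differed from untreated wild type in 65 of 13338 genes tested at an adjusted p under 0.05, which is 0.487% of them. Of these, 46 were higher (0.345%) and 19 lower (0.142%), and 45 changed at least 2-fold. The higher genes were mostly sparse transcripts with a large change, among them genes of B cells and of tissue macrophages: their median log2 fold change was 2.66, and 15 of 46 were under 1 CPM in both groups. The lower genes were mostly well-expressed transcripts with a modest change (median log2 fold change -0.66), among them RNA-processing and interferon-response genes. The median log2 fold change over all genes was 0.0016, which scaling holds near 0 by construction.

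Before adjustment, 2027 genes had a p under 0.05, where chance alone gives 666.9. List counts below, at an unadjusted p under 0.05 or by DESeq2, stand beside 2027 and 569 of the 13338 genes tested. The 6 and the 3 libraries did not overlap for 63 of the 65 called genes. Without a test, 697 genes (5.23%) were higher and 540 genes (4.05%) lower in all 6 libraries. The smallest adjusted p was 0.00832, and 56 of the 65 calls lay between 0.04 and 0.05, close to the threshold.

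This closeness made the count depend on single libraries. Leaving out untreated replicate 1, 2 or 3 left 23, 0 and 2 called genes. Every call against untreated wild type was thus lost without untreated replicate 2, and the 2 that passed without replicate 3 were Hnrnpdl and Il6. Leaving out 2500 ppm replicate 2, 3, 4 or 5 left 8, 8, 12 and 21, while leaving out replicate 1 or 6 raised the count to 163 and 122. DESeq2 called 569 genes, 399 higher and 170 lower, which included all 65. A fit of the 2 compared groups alone called 4 genes, 2 of them among the 65. None of the 65 passed under every alternative, and none changed sign under any.

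**Figure D2:**
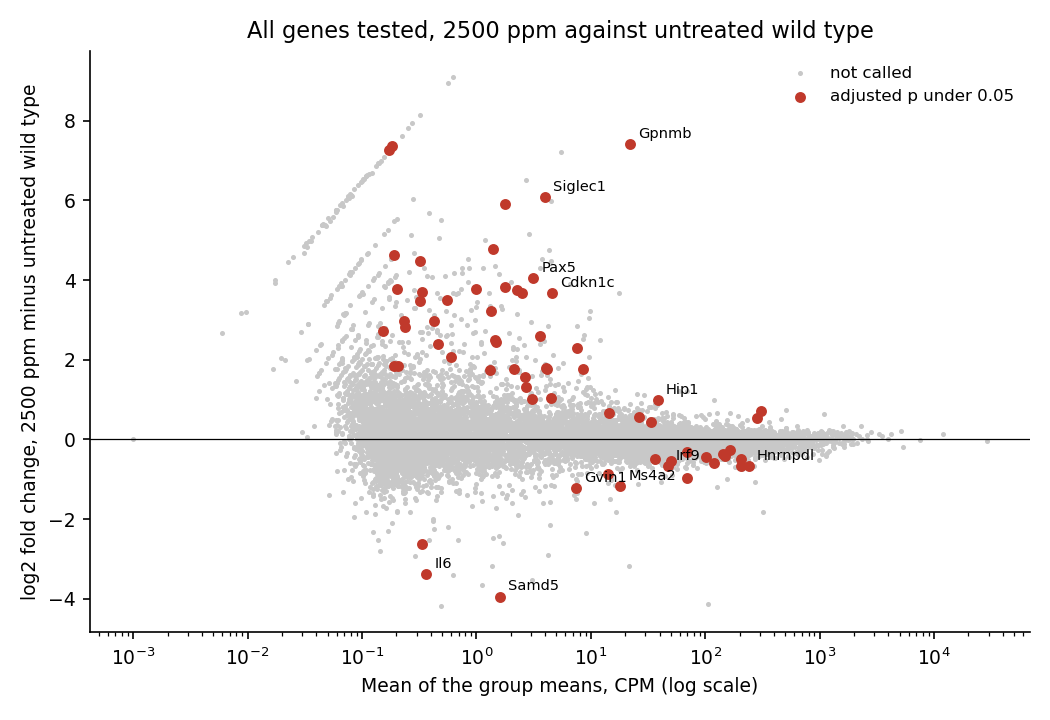
Each point is a gene, by its mean level in CPM (log scale) and its log2 fold change, 2500 ppm minus untreated wild type. Red points are the 65 genes with an adjusted p under 0.05, of which the 46 higher ones lie mostly at low levels and the 19 lower ones mostly at high levels.

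Several genes of the B lineage rose. Of the 16 listed B cell genes tested, 5 were called and all 5 were higher, against 0.345% of all genes. All 16 had a fold change above 0, with a median log2 fold change of 2.44, and in 10 of them all 6 libraries lay above all 3 untreated ones, against 5.23% of all genes.

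Pax5 encodes the transcription factor that commits cells to the B lineage and lies on chromosome 4 (44524757 to 44710487, GRCm38). In the untreated libraries it was at 0.632, 0.418 and 0.0196 CPM, and at 2500 ppm at 1.38 to 11.2 CPM with a median of 5.67. Every 2500 ppm library was above every untreated one, although the last of the untreated libraries held only 1 count. The log2 fold change was 4.04 ± 0.86 (SE, adjusted p = 0.0477).

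Cd79a, a signalling chain of the B cell antigen receptor, was at 0.530, 0.314 and 0.235 CPM in untreated wild type and at 1.29 to 8.19 CPM (median 4.10) at 2500 ppm, with a log2 fold change of 3.69 ± 0.78 (adjusted p = 0.0484). Pou2af1, a co-activator of octamer-binding factors in B cells, was at 0.408, 0.244 and 0.0392 CPM and at 0.666 to 5.59 CPM (median 2.90), a log2 fold change of 3.83 ± 0.81 (adjusted p = 0.0475). For both genes all 6 libraries were above the untreated ones. Lef1, a Wnt-responsive factor present in early B and T cells and not in the B cell list, behaved alike: 0.693, 0.192 and 0.0588 CPM became 1.27 to 7.58 CPM (median 3.96), a log2 fold change of 3.75 ± 0.76 (adjusted p = 0.0450).

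A further called B cell gene was at a far higher level. Cd79b, the partner chain of Cd79a, was at 22.4, 24.0 and 17.7 CPM in untreated wild type and at 27.5 to 36.0 CPM (median 32.0) at 2500 ppm, a log2 fold change of 0.56 ± 0.12 (adjusted p = 0.0456, and 0.0539 after a correction for GC content). The groups were close but did not overlap.

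Members that did not pass had values on the same side. Dntt, the template-independent DNA polymerase of receptor rearrangement, was at 20.6 ± 11.6 CPM (SD, n = 6) against 3.64 ± 2.78 CPM (n = 3), with an adjusted p of 0.0972. Vpreb3 had 2.38 ± 1.52 CPM against 0.185 ± 0.175 CPM (adjusted p = 0.0690). Rag2, of the recombinase, had 1.90 ± 0.469 CPM against 0.998 ± 0.680 CPM (adjusted p = 0.280).

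The summed level of the 16 genes was 41.8, 38.7 and 22.4 CPM in the untreated libraries and 51.8 to 123.2 CPM (median 91.2) at 2500 ppm, without overlap. Within the 2500 ppm group the sum was 123.2, 105 and 114 CPM in replicates 2, 3 and 4 and 77.1, 71.0 and 51.8 CPM in replicates 1, 5 and 6. Level and library separation thus moved together, and the part of the latter in these values was not tested. Replicate 2 was highest for Pax5, Cd79a, Lef1 and Cd79b, and replicate 6 was lowest for Pax5, Cd79a, Pou2af1 and Lef1. In these bulk samples, more cells of a type and more RNA per cell cannot be told apart. Leaving out any 1 of the untreated libraries, or 2500 ppm replicate 2, 3, 4 or 5, left 0 of the 16 genes called.

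Immunoglobulin gene segments held no called gene. Of 181 segments counted, 118 had 0 counts in all 3 untreated libraries. Such segments could pass the filter only through dosed libraries, and their fold change could not be below 0. Of 78 tested, 75 had a fold change above 0, with a median log2 fold change of 3.99. By library, the median log2 ratio to the untreated mean was 1.89 and 2.58 in 2500 ppm replicates 1 and 5. In replicates 2, 3, 4 and 6 it was near 0. By edgeR's quasi-likelihood test 0 were called, 15 had an unadjusted p under 0.05 and DESeq2 called 10. Over all 13338 genes these counts were 65, 2027 and 569. The summed level of the segments was 31.5, 2.60 and 4.88 CPM in untreated wild type and 13.9 to 111 CPM at 2500 ppm. Untreated replicate 1 lay inside the range of the 2500 ppm libraries. Plasma cell genes had 0 of 6 called, and T and NK cell genes 0 of 13, with medians of 0.76 and -0.21. At an unadjusted p under 0.05 there were 4 and 1, and DESeq2 called 2 and 1. The summed level of the plasma cell genes went against their median. It was 258, 271 and 290 CPM in untreated wild type and 204 to 243 CPM at 2500 ppm, without overlap.

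The called gene with the largest change was one of macrophages, although the macrophage list did not hold it. Gpnmb, a glycoprotein of lysosome-rich phagocytes on chromosome 6 (49036546 to 49070929), was at 0.265, 0.279 and 0.216 CPM in the untreated libraries. At 2500 ppm it was at 12.5 to 104 CPM with a median of 35.2. The untreated libraries were nearly equal and each held 11 to 16 counts, while the 2500 ppm libraries were spread 8.28-fold, with replicate 2 highest and replicate 5 lowest. The log2 fold change was 7.42 ± 1.20 (adjusted p = 0.0207), the largest of the called genes. It lost its call when any 1 untreated library was left out (adjusted p up to 0.205), and its log2 fold change then and under the other alternatives stayed between 6.96 and 8.04.

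Siglec1, the sialic acid receptor of marrow and lymphoid macrophages (chromosome 2, 131069220 to 131086765), was at 0.0815, 0.122 and 0.137 CPM in untreated wild type and at 2.11 to 19.6 CPM (median 4.72) at 2500 ppm. Mertk, a receptor kinase for the uptake of dying cells (chromosome 2, 128698956 to 128802894), was at 0.0408, 0.122 and 0 CPM and at 1.18 to 8.62 CPM (median 2.93). Neither gene's groups overlapped, and both were highest in replicate 2 and lowest in replicate 5, as Gpnmb was. Their log2 fold changes were 6.08 ± 1.23 and 5.91 ± 1.18 (adjusted p = 0.0450 for both).

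These were the 2 called members among the 16 macrophage genes tested, against 0.345% of all genes. The median log2 fold change of the list was 2.57, 14 of 16 were above 0, and in 12 all 6 libraries lay above the untreated ones, against 5.23% of all genes. The median over the list of the log2 ratio to the untreated mean was 3.56, 2.77 and 2.63 in replicates 2, 3 and 4 and 1.82, 1.37 and 1.32 in replicates 1, 5 and 6. All 6 were above 0, and the part of the library separation in these values was not tested. The genes for complement component C1q did not pass: C1qa was at 7.12 ± 6.74 CPM against 0.302 ± 0.174 CPM (adjusted p = 0.0806), and C1qb and C1qc had adjusted p of 0.0631 and 0.0872. Axl, a relative of Mertk, was at 14.9 ± 10.3 CPM against 2.44 ± 0.699 CPM (adjusted p = 0.112). Hmox1, the heme-degrading oxygenase, was at 14.7 ± 8.25 CPM against 2.54 ± 0.482 CPM (adjusted p = 0.0982).

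Not all macrophage genes were higher. Vcam1, an adhesion molecule of marrow macrophages and stroma, was at 175 ± 96.7 CPM at 2500 ppm and 366 ± 57.6 CPM in untreated wild type (adjusted p = 0.299), with all 6 libraries below. Since Vcam1 dominated the sum of the list, that sum was 504, 489 and 557 CPM in untreated wild type and 252 to 560 CPM at 2500 ppm, with overlap. Without any 1 of the untreated libraries, or without 2500 ppm replicate 2, 3, 4 or 5, 0 of the 16 genes were called, whereas DESeq2 called 13.

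**Figure D3:**
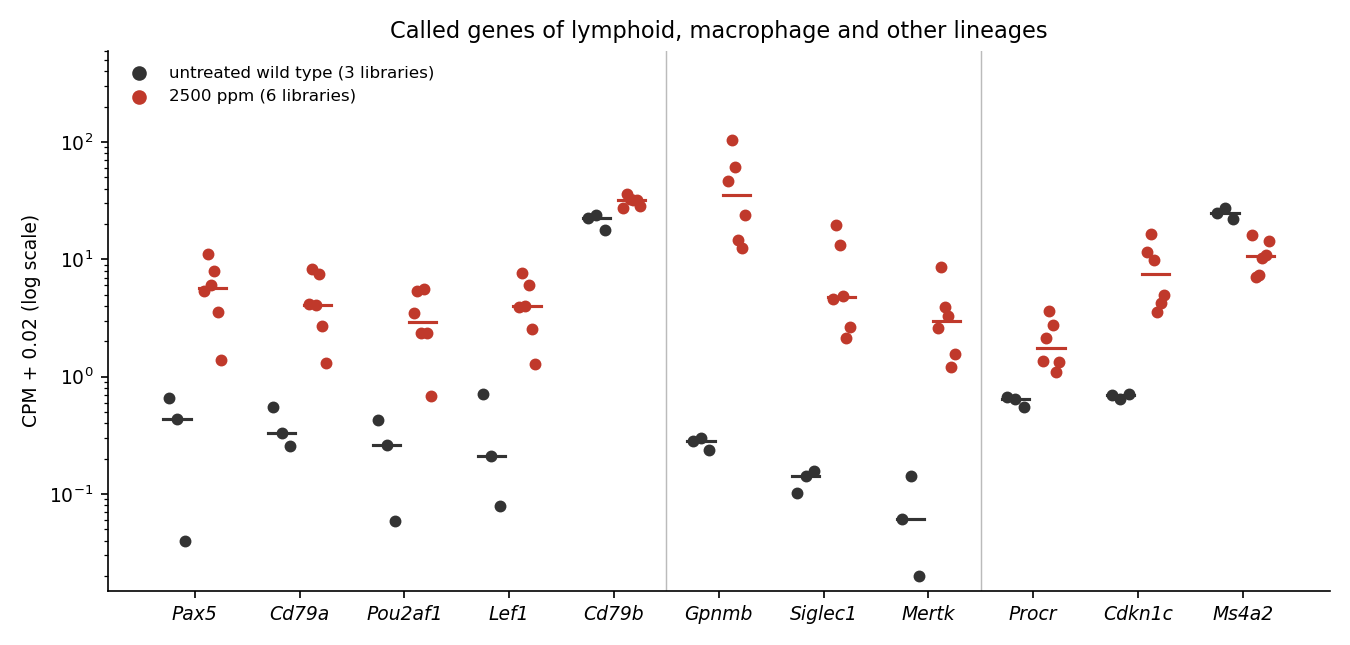
CPM plus 0.02 on a log scale for 11 called genes in each library, with the median as a line. From left to right are lymphoid genes, macrophage genes, and the genes Procr, Cdkn1c and Ms4a2. Lef1, Gpnmb and Cdkn1c were in no list. Gpnmb ran from 12.5 to 104 CPM at 2500 ppm and stayed at or under 0.279 CPM in untreated wild type.

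Markers of other cells gave few calls, but so did all genes (0.487%), so a count of 0 in lists this short says little. Stromal, endothelial and cartilage genes had 0 of 13 called by edgeR, 9 at an unadjusted p under 0.05, 4 called by DESeq2, and a median log2 fold change of 2.14. They included Col1a1, at 4.05 ± 2.35 CPM against 0.459 ± 0.0276 CPM (adjusted p = 0.0618), and their summed level was 151 to 255 CPM against 129 to 158 CPM. Replicates 2, 3 and 4 were again the highest, at 231, 255 and 216 CPM. Monocyte genes had 0 of 10, dendritic cell genes 0 of 7, primary granule genes 0 of 8, late neutrophil genes 0 of 13, late erythroid genes 0 of 17, erythroid regulators 0 of 10 and megakaryocyte genes 0 of 14. The medians of these 7 lists ran from -0.12 to 0.28. At an unadjusted p under 0.05 edgeR found 3 late neutrophil and 3 late erythroid genes, 1 gene each of the monocyte, dendritic cell and primary granule lists, and 0 of the others. DESeq2 called 2 late neutrophil genes and 1 late erythroid gene.

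Among 19 genes of early progenitors, 1 was called, against 0.345% of all genes for higher calls. Procr, the receptor of protein C that marks stem cells, was at 0.652, 0.627 and 0.529 CPM in untreated wild type and at 1.08 to 3.61 CPM (median 1.73) at 2500 ppm, without overlap. Its log2 fold change was 1.75 ± 0.37 (adjusted p = 0.0484). Flt3, a receptor of lymphoid-primed progenitors, was at 81.8 ± 28.7 CPM against 35.4 ± 20.4 CPM (adjusted p = 0.185), and Cd34 at 415 ± 59.4 CPM against 307 ± 90.2 CPM (adjusted p = 0.439). The median of the list was 0.28.

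Ms4a2, the beta chain of the high-affinity IgE receptor of mast cells and basophils, fell. It was at 24.7, 27.6 and 22.2 CPM in untreated wild type and at 7.10 to 16.1 CPM (median 10.6) at 2500 ppm, without overlap, a log2 fold change of -1.17 ± 0.24 (adjusted p = 0.0456). It was the called member among 12 mast cell, basophil and eosinophil genes, against 0.142% of all genes for lower calls. The median of this list was -0.55. Fcer1a, the alpha chain of the same receptor, was at 3.87 ± 1.002 CPM against 11.01 ± 2.10 CPM (adjusted p = 0.0563). Prg2, an eosinophil granule protein, was at 141 ± 89.8 CPM against 500 ± 98.7 CPM (adjusted p = 0.236). The list was not uniform, as the tryptase gene Tpsb2 was at 6.91 ± 8.89 CPM against 0.346 ± 0.471 CPM (adjusted p = 0.294).

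The rule for named genes also took Cdkn1c, Nkx2-3, Gfra2 and Sdc4, which belong to no list. Cdkn1c, an inhibitor of cyclin-dependent kinases (chromosome 7, 143458339 to 143461050), was at 0.673, 0.627 and 0.686 CPM in untreated wild type and at 3.52 to 16.6 CPM (median 7.42) at 2500 ppm. The untreated libraries were nearly equal and all 6 others lay above them, with a log2 fold change of 3.67 ± 0.66 (adjusted p = 0.0430). The homeobox gene Nkx2-3 was at 0.0408, 0.0697 and 0.157 CPM and at 0.344 to 2.44 CPM (median 0.827), a log2 fold change of 3.49 ± 0.66 (adjusted p = 0.0450). Gfra2, a co-receptor of the neurturin pathway, and Sdc4, a membrane heparan sulfate proteoglycan, had log2 fold changes of 3.79 ± 0.65 and 3.22 ± 0.67 (adjusted p = 0.0344 and 0.0450). Both were separate from the untreated libraries in all 6.

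Shisa2 had the tightest values of these genes at 2500 ppm, although its untreated libraries were spread. It was at 2.12, 1.13 and 0.823 CPM in untreated wild type and at 3.52 to 4.39 CPM (median 4.15) at 2500 ppm, a log2 fold change of 1.56 ± 0.25 (adjusted p = 0.0202). Rragd, a Rag GTPase that signals amino acid supply at the lysosome, rose from 4 counts in all 3 untreated libraries to 206 counts in the 6 others. The ratio of the pooled counts was 24.9 per unit of depth (95% exact binomial interval 9.57 to 92.2, counting error only). Its adjusted p was 0.0167. Sel1l3 and Tmem132e had 0 counts in every untreated library. With a floor of 3 counts per library they were at least 6.0-fold and 6.41-fold higher at 2500 ppm, at means of 0.344 and 0.368 CPM. Rragd, Sel1l3 and Tmem132e were named after their values were seen.

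Few well-expressed genes rose. Hip1, an adaptor of clathrin and actin (chromosome 5, 135406531 to 135545120), was at 30.0, 25.3 and 21.8 CPM in untreated wild type and at 42.6 to 62.6 CPM (median 48.0) at 2500 ppm. The groups were well separated, with a log2 fold change of 0.99 ± 0.15 (adjusted p = 0.0167). Acad10, of the acyl-CoA dehydrogenase family, was at 11.5, 11.4 and 11.2 CPM and at 15.4 to 20.5 CPM (median 17.9), a log2 fold change of 0.65 ± 0.10 (adjusted p = 0.0167). Its untreated libraries differed by less than 0.3 CPM. Gmpr, the reductase that turns GMP into IMP, was at 28.8, 31.5 and 26.3 CPM and at 35.1 to 42.0 CPM (median 39.3), a log2 fold change of 0.43 ± 0.08 (adjusted p = 0.0430, and 0.112 after GC correction).

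Genes with roles in RNA metabolism were among the falls; apart from Hnrnpdl they belonged to no list and were grouped after their values were seen. Hnrnpdl encodes an RNA-binding protein of the hnRNP D family on chromosome 5 (100033577 to 100039664) and had the smallest adjusted p of all genes. It was at 276, 309 and 298 CPM in untreated wild type and at 166 to 222 CPM (median 180) at 2500 ppm. All 6 libraries lay below all 3, and the log2 fold change was -0.67 ± 0.09 (adjusted p = 0.00832). After GC correction it was -0.62 (adjusted p = 0.00797), and it was called in 16 of 19 alternatives.

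Xrn2, the nuclear exonuclease that acts in transcription termination, was at 226, 236 and 257 CPM in untreated wild type and at 150 to 191 CPM (median 170) at 2500 ppm. All 6 libraries were below the untreated ones, and the log2 fold change was -0.49 ± 0.10 (adjusted p = 0.0450). Eif4a2, an RNA helicase of translation initiation, was at 255, 251 and 250.2 CPM and at 128 to 208 CPM (median 153), a log2 fold change of -0.66 ± 0.13 (adjusted p = 0.0450). The untreated libraries of Eif4a2 were nearly equal, whereas the 2500 ppm libraries were spread. Small nucleolar RNA genes lie within Eif4a2, and the use of strand and of overlaps in the counting is not given in the sources used here.

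Arglu1, a regulator of splicing and of nuclear receptor signalling, was at 127, 113 and 112 CPM in untreated wild type and at 75.2 to 103 CPM (median 82.7) at 2500 ppm. The groups did not overlap, and the log2 fold change was -0.45 ± 0.09 (adjusted p = 0.0450). Fnbp4, a formin-binding protein, had a log2 fold change of -0.41 ± 0.08 (adjusted p = 0.0450). After GC correction Arglu1 and Fnbp4 did not pass (adjusted p = 0.0742 and 0.0575), while Xrn2 and Eif4a2 did (0.0157 and 0.0390). Rsrp1, which encodes an arginine- and serine-rich nuclear protein and was named after its values were seen, went the other way: 266, 225 and 206 CPM became 286 to 371 CPM (median 342), a log2 fold change of 0.53 ± 0.10 (adjusted p = 0.0430).

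Within the 2500 ppm group, Hnrnpdl, Eif4a2, Xrn2 and Arglu1 differed between the libraries that stood apart. Hnrnpdl was at 222, 195 and 183 CPM in replicates 1, 5 and 6 and at 166, 176 and 166 CPM in replicates 2, 3 and 4. Eif4a2 was at 208, 185 and 171 CPM in the former and at 128, 135 and 130 CPM in the latter. Xrn2 was at 180, 189 and 191 CPM in the former and at 150, 156 and 159 CPM in the latter. For Arglu1 the values were 103, 92.65 and 84.9 CPM and 77.8, 75.2 and 80.55 CPM. Replicates 1, 5 and 6 of these genes were thus nearer to the untreated level and still below it, and this split of the libraries was not tested. Fnbp4 overlapped between the same libraries, at 153, 128 and 119 CPM in the former and 118, 132 and 114 CPM in the latter. Rsrp1 lay farther from the untreated level in the former, at 363, 371 and 348 CPM, than in the latter, at 336, 303 and 286 CPM. Hip1 had 44.0, 46.1 and 42.6 CPM in replicates 1, 5 and 6 and 61.3, 62.6 and 49.8 CPM in replicates 2, 3 and 4.

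Among 31 SR and hnRNP genes, Hnrnpdl was the 1 called, against 0.142% of all genes for lower calls. A fold change below 0 was found in 24, and the median was -0.06. At an unadjusted p under 0.05 there were 7, DESeq2 called 2, and in 4 all 6 libraries lay below the untreated ones, against 4.05% of all genes. The 17 genes of 3' splice site recognition had 0 calls and a median of -0.09. Among them Sf3b1, whose product binds the branch site region, was at 640 ± 92.3 CPM against 729 ± 48.2 CPM (adjusted p = 0.427). The 15 genes of nonsense-mediated decay had 0 calls and a median of -0.11. For each of the latter lists edgeR found 2 genes at an unadjusted p under 0.05 and DESeq2 called 0.

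**Figure D4:**
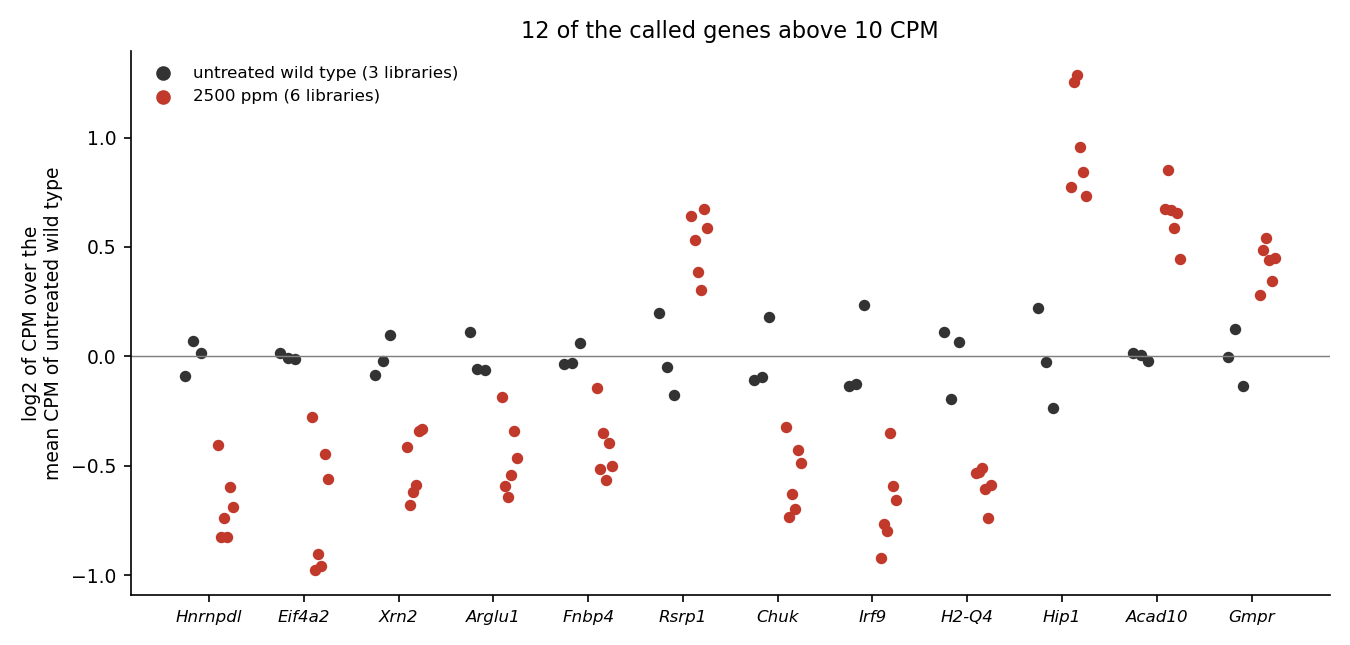
log2 of the CPM in each library over the mean CPM of the 3 untreated libraries, for 12 called genes with a mean above 10 CPM in both groups. Hnrnpdl, Eif4a2, Xrn2, Arglu1, Fnbp4, Chuk, Irf9 and H2-Q4 were lower in all 6 libraries at 2500 ppm, and Rsrp1, Hip1, Acad10 and Gmpr were higher in all 6.

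Interferon-stimulated genes lay mostly below the untreated level, although the 2500 ppm mice and not the untreated ones had received pIpC. Of 37 tested, 3 were called and all 3 were lower, against 0.142% of all genes. A further 29 had a fold change below 0, the median was -0.41, and in 10 all 6 libraries lay below the untreated ones, against 4.05% of all genes. The summed level was 2706, 2887 and 3045 CPM in untreated wild type and 2037 to 2962 CPM (median 2552) at 2500 ppm. Replicates 3 and 4 lay inside the untreated range, at 2716 and 2962 CPM.

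Many of these genes are activated through a promoter element, the interferon-stimulated response element (ISRE), that a factor with IRF9 as a subunit binds. Its core, taken as 2 copies of GAAA with any 2 bases between them, was searched on both strands of the 250 bases before each RefSeq start site (GRCm38.p6). It was present in 3.46% of the 27025 genes with a promoter entry and in 12 of the 27 listed genes with one. Among the called members, Irf9 and Oasl2 had an entry and neither held the core. Irgm1, an immunity-related GTPase chosen after its values were seen, is shown because its window holds overlapping copies of the core, in capitals, and that of Oasl2 for contrast. A match is a description of the letters and not a shown binding site.
Irgm1 (chr11:48871421-48871670, minus strand): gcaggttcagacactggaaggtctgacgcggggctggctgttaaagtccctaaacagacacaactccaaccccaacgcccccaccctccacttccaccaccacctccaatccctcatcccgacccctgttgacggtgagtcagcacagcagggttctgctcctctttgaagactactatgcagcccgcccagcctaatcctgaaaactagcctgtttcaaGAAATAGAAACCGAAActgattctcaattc
Oasl2 (chr5:114896684-114896933, plus strand): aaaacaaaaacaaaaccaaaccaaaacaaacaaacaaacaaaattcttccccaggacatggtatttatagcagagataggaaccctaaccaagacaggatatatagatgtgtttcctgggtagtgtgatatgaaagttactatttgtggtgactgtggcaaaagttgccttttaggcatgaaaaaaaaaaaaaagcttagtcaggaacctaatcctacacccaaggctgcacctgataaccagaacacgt

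Irf9, the DNA-binding subunit of that factor (chromosome 14, 55603571 to 55610030), was at 52.3, 52.6 and 67.6 CPM in untreated wild type and at 30.4 to 45.1 CPM (median 35.2) at 2500 ppm. All 6 libraries were lower, with a log2 fold change of -0.67 ± 0.12 (adjusted p = 0.0430). Irf9 overlaps Rnf31 on the same strand, so reads of the pair may be shared. Oasl2, a relative of the oligoadenylate synthetases, was at 12.7, 18.4 and 23.4 CPM and at 7.55 to 12.3 CPM (median 10.1), a log2 fold change of -0.88 ± 0.18 (adjusted p = 0.0471). The lowest untreated library lay just above the highest at 2500 ppm.

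Gvin1, a very large interferon-inducible GTPase, was at 11.7, 8.82 and 10.8 CPM in untreated wild type and at 3.003 to 6.71 CPM (median 4.49) at 2500 ppm. Its groups were apart, with a log2 fold change of -1.22 ± 0.24 (adjusted p = 0.0450, and 0.0952 after GC correction). Irgm1 was at 44.7 ± 6.62 CPM against 68.2 ± 13.05 CPM (adjusted p = 0.0577). Ifih1, a sensor of double-stranded RNA, was at 44.3 ± 5.07 CPM against 65.3 ± 15.7 CPM (adjusted p = 0.0608).

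Without untreated replicate 2 or 3, or without 2500 ppm replicate 2, 3 or 5, 0 of the 37 genes were called, and without untreated replicate 1, or 2500 ppm replicate 4, 2 were. The median of the list stayed between -0.44 and -0.34 under all alternatives. DESeq2 called 10 of them. The 1250 ppm group, set against the same untreated libraries, had a median of -0.61 with 18 lower (background 4.66%), and the 10000 ppm group a median of -0.22 with 1 lower (background 0.315%). These comparisons share their controls.

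**Figure D5:**
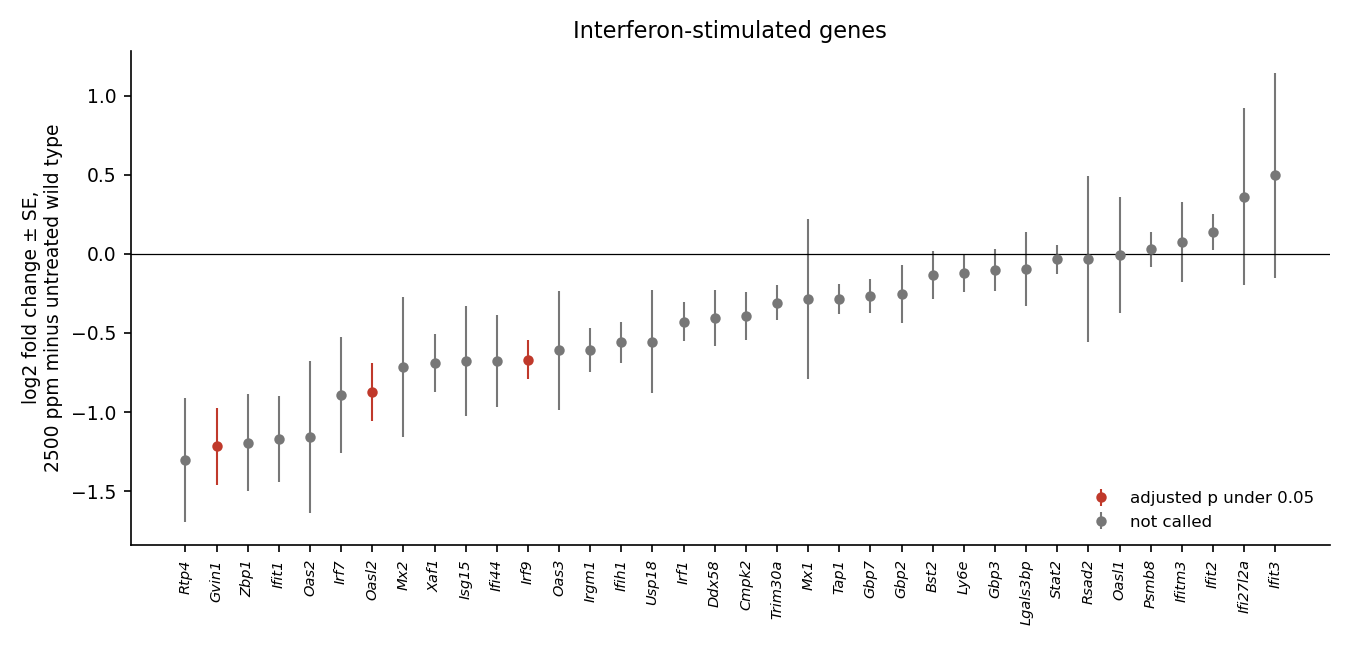
log2 fold change with its SE for 36 of the 37 interferon-stimulated genes, 2500 ppm minus untreated wild type, in order of size. Most points lie below 0, and the red points Gvin1, Oasl2 and Irf9 are the 3 called genes.

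Among other genes of immune signalling, H2-Q4, Il6 and Chuk fell. H2-Q4, a class I histocompatibility gene, was at 156, 126 and 151 CPM in untreated wild type and at 86.5 to 101 CPM (median 98.0) at 2500 ppm. All 6 libraries were lower and tightly grouped, with a log2 fold change of -0.58 ± 0.11 (adjusted p = 0.0430). H2-Q4 belongs to a family of near-identical copies among which the authors' counting could split reads, so its value is uncertain. It was the 1 called gene of 6 in the class I list, against 0.142% of all genes for lower calls. The median of that list was -0.09. The class II list had 0 of 7 called by edgeR, by DESeq2 or at an unadjusted p under 0.05, and a median of 0.35.

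Il6, the inflammatory cytokine, was at 0.673, 1.01 and 0.314 CPM in untreated wild type and at 0.0165 to 0.134 CPM (median 0.0487) at 2500 ppm. The untreated libraries held 33, 58 and 16 counts, and all 6 others lay below them, with a log2 fold change of -3.39 ± 0.50 (adjusted p = 0.0167). Chuk, a kinase of the IkB complex that releases NF-kB (chromosome 19, 44073335 to 44107480), was at 55.0, 55.6 and 67.2 CPM and at 35.7 to 47.4 CPM (median 40.4), without overlap. Its log2 fold change was -0.54 ± 0.10 (adjusted p = 0.0430, and 0.0507 after GC correction). Il6 was the called member of 15 genes of NF-kB inflammation, against 0.142% of all genes for lower calls. Of the 15, 13 were below 0, and the median was -0.21. Nfkbia, the inhibitor that NF-kB itself induces, was at 103 ± 35.4 CPM against 207 ± 39.8 CPM (adjusted p = 0.0943), and Tnfaip3 at 77.2 ± 40.8 CPM against 176 ± 70.8 CPM (adjusted p = 0.134).

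The called genes whose groups overlapped were Klf9 and Samd5, named after their values were seen. Klf9, a steroid-responsive zinc finger factor, was at 57.6, 109 and 110 CPM in untreated wild type and at 39.3 to 58.5 CPM (median 46.4) at 2500 ppm. Samd5 was at 0.204, 7.68 and 1.20 CPM and at 0.0335 to 0.323 CPM (median 0.229). In both genes untreated replicate 1 lay inside the 2500 ppm range, and the value of Samd5 rested on untreated replicate 2.

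The lists for p53, stress and survival held no called gene, against 0.487% of all genes, so the absence of calls says little. The 25 p53 targets had a median log2 fold change of 0.03, and Btg2, an anti-proliferative p53 target, was at 112 ± 37.8 CPM against 99.9 ± 4.89 CPM (adjusted p = 0.880). The 25 genes of the ATF4 stress response had a median of -0.17 and the 15 chaperones of the endoplasmic reticulum one of 0.02. The 13 Bcl2 family genes had a median of 0.08, and Mcl1, an anti-apoptotic member, was at 269 ± 37.0 CPM against 278 ± 1.49 CPM (adjusted p = 0.925). At an unadjusted p under 0.05, edgeR found 1 p53 target higher, 1 ATF4 gene higher and 1 lower, 1 chaperone lower and 0 Bcl2 family genes. DESeq2 called 1 p53 target and 1 ATF4 gene.

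Growth genes gave the same count of 0 by edgeR, which says little beside a share of 0.487% over all genes. Among 47 cytosolic ribosomal protein genes, 44 were above 0 with a median of 0.14 and 10 had an unadjusted p under 0.05. Rpsa, for example, was at 2966 ± 246 CPM against 2611 ± 23.7 CPM (adjusted p = 0.3004). The 69 mitochondrial ribosomal genes had a median of 0.02 and the 70 nuclear-encoded respiratory chain genes one of 0.04. Of 19 mitosis genes, 18 were below 0 with a median of -0.14, and the 22 replication genes had a median of 0.04. The 42 small nucleolar RNA genes tested had a median of -0.52, and 39 of them were below 0. Their median log2 ratio to the untreated mean was -0.02, 0.05 and -0.09 in 2500 ppm replicates 1, 5 and 6. In replicates 2, 3 and 4 it was -1.20, -1.94 and -0.90, and this split of the libraries was not tested. At an unadjusted p under 0.05 edgeR found 8 respiratory chain genes, 5 mitosis genes, 7 replication genes and 0 mitochondrial ribosomal or small nucleolar genes, and DESeq2 called 2 replication genes and 0 of the rest. Over all 13338 genes tested these counts were 2027 and 569.

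The other doses compare mice of the same genotype and pIpC treatment. The 2500 ppm and 10000 ppm groups gave 0 called genes by edgeR (0.000% of those tested), 1445 at an unadjusted p under 0.05 and 51 called by DESeq2. The 2500 ppm and 1250 ppm groups differed in 255 genes (1.91%), 73 higher (0.547%) and 182 lower (1.36%) at 2500 ppm. None of the 65 genes that differed from untreated wild type was among the 255. Beside a share of 1.91% over all genes, this absence says little. Leaving out 1 library moved that count to between 0 and 926. It was 0 without 1250 ppm replicate 1, 4 or 5, or 2500 ppm replicate 1, 2, 5 or 6.

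Levels at the 3 doses are set side by side here without a comparison. Gpnmb was at 43.8 ± 35.0 CPM at 2500 ppm (n = 6), 31.9 ± 38.3 CPM at 1250 ppm (n = 4) and 36.2 ± 15.2 CPM at 10000 ppm (n = 4), against 0.253 ± 0.0332 CPM in untreated wild type. Irf9 averaged 36.2 CPM at 2500 ppm, 31.9 CPM at 1250 ppm, 41.5 CPM at 10000 ppm and 57.5 CPM in untreated wild type. The comparisons of each dose with untreated wild type share the untreated libraries. Against them, the 1250 ppm group had 1524 called genes (11.4%), of which 902 were higher (6.76%), and the 10000 ppm group 169 (1.27%), of which 127 were higher (0.952%).

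The genes named for 2500 against 1250 ppm were the 3 largest rises and the 3 largest falls under the rule for named genes. Tiam2, an activator of the Rac GTPase, was at 7.14 ± 2.59 CPM at 2500 ppm, 2.48 ± 0.762 CPM at 1250 ppm and 8.64 ± 1.93 CPM in untreated wild type. Its log2 difference between the doses was 1.52 ± 0.36 (adjusted p = 0.0465). Bcat1, the cytosolic transaminase of branched-chain amino acids, was at 3.19 ± 1.62 CPM at 2500 ppm, 10.6 ± 4.11 CPM at 1250 ppm and 2.20 ± 0.922 CPM in untreated wild type, a log2 difference of -1.72 ± 0.36 (adjusted p = 0.0443). Pdzd4 (1.77 ± 0.43, adjusted p = 0.0475) and Gm15987 (1.64 ± 0.27, adjusted p = 0.0443) were also higher at 2500 ppm. Smpdl3b (-2.08 ± 0.46) and Tulp3 (-1.49 ± 0.28) were lower, with an adjusted p of 0.0443 each.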

How the data were processed

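Per the labels' design text, the authors mapped reads with HISAT2 2.1.0 to GRCm38. Whole-number counts per gene were deposited, without normalization. The counter, annotation release, use of strand and gene filter are not given in the sources used here. Of 27728 genes, 27668 had a symbol in GENCODE M21 (GRCm38). The 17 adult libraries were fitted in 1 model with edgeR 4.0.16 (filterByExpr, TMM, quasi-likelihood test in R 4.3.3), and calls needed an adjusted p (Benjamini-Hochberg) under 0.05. The untreated group has 3 libraries, which limits precision more than depth does. Each of the 18 replicate pairs differed beyond counting error (chi-square per degree of freedom 18.2 to 253).

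Named genes were the 12 largest rises and falls and the 10 smallest adjusted p among called genes with separate CPM ranges and, in the higher group, 50 counts on average or more (47 genes). To these came up to 4 called members of each list by adjusted p, or else its 2 most abundant members, and the 3 largest rises and falls between doses. Further members, given by value, were picked from the lists after their values were seen. Members, lists and rules were chosen with earlier results of these data known. The scripts were tested on simulated data. Alternatives were DESeq2 1.42.0, other scalings and filters, a fold threshold, only the compared groups, a replicate block and leaving out each library. A correction for GC content (lowess, span 0.3) and a robust spread estimate were chosen after seeing the data. Splicing was not analysed here. Some genes are not reported here, although counts and medians of the lists include them.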

Additional observations from a re-analysis of the deposited data

Results flagged for a closer look

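Single 2500 ppm libraries stood apart from the other 5 for some values. Mertk was at 8.62 CPM in replicate 2, with the next library at 3.92 CPM. Speg, a muscle kinase gene, was at 1.17 CPM in replicate 2 against 0.615 CPM in the next. The summed level of the monocyte genes was 3276 CPM in replicate 2 against 2527 CPM, and that of the mitochondrial ribosomal genes was 3933 CPM in replicate 4 against 3415 CPM. These 4 came from 104 sets of values examined, and chance alone marks about 1 in 20 such sets. The test of the difference between doses called 255 genes for 2500 against 1250 ppm.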

How the results depend on the processing

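In 2500 ppm against untreated wild type (65 genes), DESeq2 called 569, a mean of at least 50 counts 7, only the compared groups 4, and the replicate block 121 (44 of them shared). Median-ratio scaling (67), leaving out genes over 1% of a library (65), no filter (86), a fold threshold (45), GC correction (72) and a robust spread estimate (57) stayed within 1.5 times. Leaving out 1 library gave 0 to 163. The share of higher genes was 70.8%, but 81.4% with no filter, 82.6% with the block, 85.7% at 50 counts, 88.9% with the fold threshold, 100% with only the compared groups, and 0% to 85.7% without 1 library (57.7% without 2500 ppm replicate 1, 60.9% and 0% without untreated replicate 1 and 3).

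In 2500 against 1250 ppm (255 genes), the counts were 1106 with DESeq2, 153 with median-ratio scaling, 157 without genes over 1%, 0 with no filter, 29 with the fold threshold, 0 with the replicate block and 397 with GC correction. The cause was not tested. Leaving out 1 library gave 0 to 926. The higher share was 28.6%, 38.8% with DESeq2, and 54.7% in a fit of both groups alone. In 2500 against 10000 ppm (0 genes), DESeq2 called 51 and leaving out 1 library gave 0 to 20.

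No tested direction of a called gene reversed. Equal replicate numbers were not shown to pair libraries: deviations of same-numbered libraries at 2500 ppm and in untreated wild type correlated at 0.20, 0.08 and 0.14, with 1 of 3 best with its own number. At 10000 ppm the values were 0.34, 0.33, -0.27 and 0.52 (3 of 4 best), and at 1250 ppm all 4 were below 0. Genes under about 1 CPM rest on few counts in the untreated libraries. The 3 untreated libraries limit the comparison with untreated wild type more than depth does.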

Other observations

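Among the higher genes were several of the extracellular matrix and of epithelial or endothelial cells that no list held. Nid2, a basement membrane protein, was at 1.20, 1.24 and 2.999 CPM in untreated wild type and at 3.75 to 10.1 CPM (median 5.81) at 2500 ppm, a log2 fold change of 1.80. Col16a1, a collagen, was at 1.83, 2.23 and 1.59 CPM and at 4.45 to 9.65 CPM (median 5.24), a log2 fold change of 1.78. Sulf2, a heparan sulfate sulfatase, was at 4.34, 1.92 and 1.37 CPM and at 5.80 to 18.1 CPM (median 13.7), a log2 fold change of 2.30. In these genes all 6 libraries lay above the 3 untreated ones. They were chosen and grouped after their values were seen.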
